A study of Mus musculus with 6 samples.

Results

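Creatine synthesis and its use as a phosphate store were followed in mouse epididymal fat through 8 genes: Gatm and Gamt, which make creatine, Slc6a8, which imports it, the creatine kinases Ckb, Ckm, Ckmt1 and Ckmt2, and the phosphatase Alpl. The members were the rows of the gene count table whose Ensembl identifiers carry these symbols in the GENCODE M21 annotation of GRCm38, and they are 8 of the 54532 genes listed. Of these, 6 had enough counts to be tested, while Ckm and Ckmt2 did not. The study sequenced RNA from the epididymal fat pad of male C57BL/6J mice, with 3 libraries from animals on a normal diet (ND, 4.5% fat) and 3 from animals on a high-fat diet (HFD, 60% fat). Feeding started when the animals were 4 weeks old and went on for 16 weeks, so that all were 20 weeks old at sampling, and the labels give no drug treatment or genetic change in either group. Each library is a sample of its own in the labels, which do not say in so many words that each came from a separate mouse. The p-values therefore measure the spread between these samples only. The RNA came from unfractionated fat, so fewer cells of a type and less RNA per cell cannot be told apart in any value given here.

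Creatine is built in 2 steps. Gatm, a mitochondrial enzyme, moves the amidino group of arginine onto glycine to give guanidinoacetate and ornithine, and Gamt then methylates guanidinoacetate with S-adenosylmethionine. Slc6a8 is the sodium- and chloride-dependent transporter that brings creatine into cells. Creatine kinases move phosphate between ATP and creatine: Ckb and Ckm are the brain-type and muscle-type enzymes of the cytosol, and Ckmt1 and Ckmt2 are the ubiquitous and sarcomeric enzymes of mitochondria. In fat, the pathway is known for a futile cycle in thermogenic adipocytes, in which creatine is phosphorylated and phosphocreatine is hydrolysed again, with Ckb and the tissue-nonspecific alkaline phosphatase Alpl as parts of that cycle.

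The 4 kinases are paralogs, so their coding sequences are set side by side here to show how far reads could be told apart. Each line holds 57 coding bases of GRCm38 around the codon of the active-site cysteine, which is in capitals, read 5′ to 3′ on the coding strand.
Ckb: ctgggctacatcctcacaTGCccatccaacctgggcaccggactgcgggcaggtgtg
Ckm: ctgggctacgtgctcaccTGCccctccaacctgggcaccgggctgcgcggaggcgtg
Ckmt1: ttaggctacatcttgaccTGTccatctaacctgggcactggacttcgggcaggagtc
Ckmt2: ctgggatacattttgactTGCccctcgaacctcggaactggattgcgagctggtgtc
Within this stretch Ckb differed from Ckm at 8 bases, from Ckmt1 at 11 and from Ckmt2 at 14. Over the aligned coding sequences, Ckb was 76.4% identical to Ckm and 67.1% and 67.3% identical to Ckmt1 and Ckmt2, while the mitochondrial pair was 72.7% identical. The longest run of identical bases that Ckb shared with another member was 20, and the longest in any pair was 39, between Ckmt1 and Ckmt2.

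The promoters of 3 members are shown: Ckb, because it is the kinase with the highest level, and Gatm and Gamt, because they are the consecutive steps of synthesis and only Gatm was called. The sequences are from RefSeq (GRCm38.p6), 5′ to 3′ on the strand of the gene, and end at the base before the first GENCODE exon, which leaves out the last 26 bases before the RefSeq start for Gatm; capitals mark TATAAA and CCAAT on either strand. They lie at chr12:111672339-111672588 (minus strand) for Ckb, chr2:122611304-122611527 (minus strand) for Gatm and chr10:80261013-80261262 (minus strand) for Gamt.
Ckb: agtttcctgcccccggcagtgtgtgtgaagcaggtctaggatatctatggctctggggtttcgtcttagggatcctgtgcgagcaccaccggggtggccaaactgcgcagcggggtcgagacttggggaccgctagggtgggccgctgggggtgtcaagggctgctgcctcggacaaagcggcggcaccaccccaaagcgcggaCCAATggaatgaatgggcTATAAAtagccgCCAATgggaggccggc
Gatm: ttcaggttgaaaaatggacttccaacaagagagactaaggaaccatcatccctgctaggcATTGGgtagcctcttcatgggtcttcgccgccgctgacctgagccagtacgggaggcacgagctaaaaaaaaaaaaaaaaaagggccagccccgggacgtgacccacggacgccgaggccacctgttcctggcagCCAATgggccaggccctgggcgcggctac
Gamt: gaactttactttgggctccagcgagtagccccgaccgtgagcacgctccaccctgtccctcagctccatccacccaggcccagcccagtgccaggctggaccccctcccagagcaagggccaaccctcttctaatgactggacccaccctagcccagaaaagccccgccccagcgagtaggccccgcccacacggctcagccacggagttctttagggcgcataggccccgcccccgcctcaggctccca
In the 250 bases before the RefSeq start, Ckb held TATAAA at 28 to 23 bases upstream and CCAAT at 46 to 42 and at 16 to 12 bases upstream. Gatm held 2 matches to CCAAT and no TATAAA, and Gamt held neither. Over 32851 mouse promoter windows of this length, 12.4% held TATAAA and 33.8% held CCAAT, so the letters are common and a match is not a known site. No promoter entry for Slc6a8 was used here.

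Of the 6 members tested, 2 passed an adjusted p of 0.05 in edgeR's quasi-likelihood test, and both, Slc6a8 and Gatm, were higher on HFD. Across all 15751 genes tested, 15.9% were called, 9.85% as higher and 6.04% as lower, and no member was called lower. No member was lower at an unadjusted p of 0.05 either, and DESeq2 called none lower. Ckb was higher at that looser threshold (edgeR unadjusted p = 0.0262) and did not pass after adjustment. The HFD libraries lay entirely above the ND libraries for 2 members, Slc6a8 and Gatm, and entirely below them for Alpl, which makes 3 of 6 without overlap. Over all genes tested, 40.9% had no overlap, 21.7% with HFD above and 19.1% with HFD below. The median log2 fold change of the 6 members was 0.98, and that of all genes tested was 0.0074. The members' median lies midway between Gatm (0.89) and Ckmt1 (1.07). Ckmt1 had at most 22 counts in a library and an SE of 0.93, so this median is not a firm measure of the members together. Levels are given as CPM, the counts of a gene scaled to a common library size by TMM, unless FPKM, the length-corrected unit, is named.

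**Figure D1:**
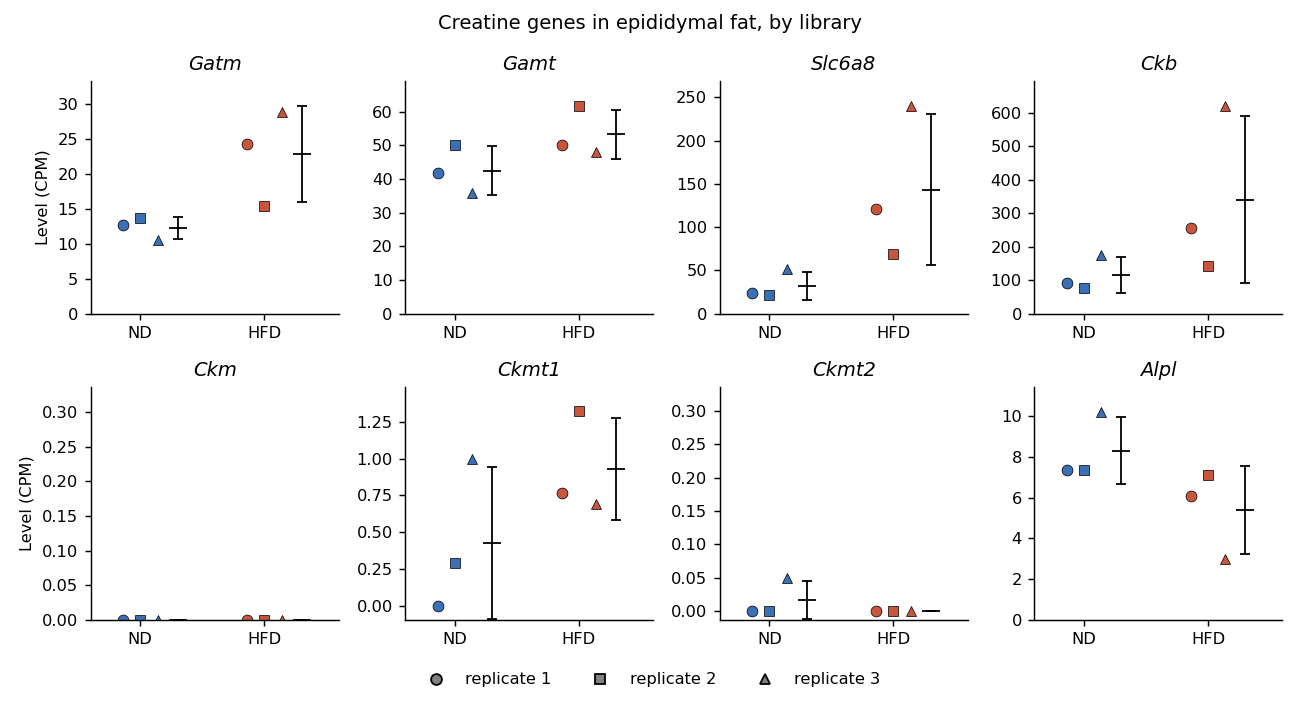
Level of each of the 8 genes in every library, in CPM on linear axes that differ between panels, with the mean and SD (n = 3 per diet) beside the points. Slc6a8 and Gatm were higher in all 3 HFD libraries than in any ND library, Ckb overlapped between the diets, and Ckm and Ckmt2 sat at or near 0.

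Slc6a8, the creatine importer, showed the largest change among the members. It stood at 23.6, 21.2 and 51.0 CPM in ND replicates 1, 2 and 3, and at 121, 69.3 and 240.0 CPM in HFD replicates 1, 2 and 3. Every HFD library was above every ND library, although the lowest HFD value was not far above ND replicate 3. The mean rose from 32.0 ± 16.6 to 143 ± 87.6 CPM (SD, n = 3 per diet), a fitted 4.48-fold difference with a 95% interval of 1.92 to 10.5 (log2 fold change 2.16, SE 0.52, edgeR adjusted p = 0.0340). The gene spans chrX:73673150-73682502 on the plus strand and shares no exonic base with another gene. Its call was lost in 4 of the 6 fits that left out 1 library: the adjusted p was 0.120 without ND replicate 1, 0.112 without ND replicate 2, 0.0928 without HFD replicate 1 and 0.0819 without HFD replicate 3. It stood at 0.0467 without ND replicate 3 and at 0.0101 without HFD replicate 2, and the log2 fold change stayed between 1.56 and 2.64.

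Gatm, which commits arginine and glycine to guanidinoacetate, was measured at 12.7, 13.7 and 10.6 CPM in ND fat and at 24.3, 15.4 and 29.0 CPM in HFD fat. The groups did not overlap, but HFD replicate 2 was close to the ND range. The mean rose from 12.3 ± 1.58 to 22.9 ± 6.89 CPM (SD, n = 3 per diet), a 1.86-fold difference (95% interval 1.25 to 2.77, log2 fold change 0.89, SE 0.24, edgeR adjusted p = 0.0489), just under the threshold. Leaving out 1 library ended the call except when HFD replicate 2 was the library left out. Without ND replicate 1, 2 or 3 the adjusted p was 0.135, 0.105 and 0.136, without HFD replicate 1 or 3 it was 0.161 and 0.0955, and without HFD replicate 2 it was 0.00557. Scaling with DESeq2's size factors in place of TMM gave 0.0519. The gene lies at chr2:122594467-122611303 on the minus strand.

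Gamt, the methyltransferase of the last step, did not pass the test. Its levels were 41.9, 50.0 and 35.7 CPM in the ND fat pads, against 50.0, 61.7 and 48.2 CPM under HFD. The groups overlapped, since ND replicate 2 was above HFD replicate 3. Means were 42.5 ± 7.15 and 53.3 ± 7.37 CPM (SD, n = 3 per diet), with a log2 fold change of 0.33 (SE 0.16, 95% interval -0.06 to 0.71, edgeR adjusted p = 0.204). The interval runs from slightly lower to 1.63-fold higher on HFD. Gamt lies at chr10:80258151-80261012 on the minus strand.

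Relative to each other, the 2 synthesis genes kept Gamt far above Gatm on both diets. The log2 ratio of Gatm to Gamt FPKM was -2.78, -2.92 and -2.81 under ND, against -2.10, -3.06 and -1.79 under HFD. HFD replicate 2 had the lowest ratio of all 6 libraries, so the groups overlapped. Means were -2.84 ± 0.08 and -2.31 ± 0.66 (SD, n = 3 per diet), which a two-sided exact permutation test did not separate (p = 0.4). With 3 against 3 libraries the smallest p this test can give is 0.1. Set against synthesis, the importer stood below Gamt in FPKM in every library but HFD replicate 3, where the log2 ratio of Slc6a8 to Gamt was 0.47. That ratio averaged -2.37 ± 0.92 on ND and -0.60 ± 1.08 on HFD (SD, n = 3 per diet), and the groups overlapped (two-sided exact permutation p = 0.2).

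Among the kinases, Ckb supplied nearly all of the message. It took between 98.9% and 100% of the summed kinase FPKM in every library (99.6% ± 0.357 on ND, 99.5% ± 0.486 on HFD, SD, n = 3 per diet, two-sided exact permutation p = 0.7, where 0.1 is the smallest possible). A share this close to its upper limit leaves little room to differ. Ckb itself was at 90.9, 76.5 and 176 CPM under ND, against 254, 144 and 620 CPM under HFD. ND replicate 3 was above HFD replicate 2, and HFD replicate 3 was far above all others. The means were 115 ± 54.0 and 339 ± 249 CPM (SD, n = 3 per diet), a fitted ratio of 2.96 that did not pass (95% interval 1.19 to 7.39, log2 fold change 1.57, SE 0.56, edgeR adjusted p = 0.0990). Without HFD replicate 2 the adjusted p was 0.0275 and the log2 fold change 1.94, whereas without HFD replicate 3 the log2 fold change was 0.78 (adjusted p = 0.278). With replicate number as a block the adjusted p was 0.0239. Ckb lies at chr12:111669361-111672338 on the minus strand and shares no exonic base with another gene.

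Ckm, the muscle-type kinase, had 0 counts in all 6 libraries, which allows a level of up to 0.150 to 0.181 CPM, the worth of 3 counts in each library, for counting error only. Of 18 skeletal muscle fibre markers, 9 were tested, and their summed level over all listed genes was 69.4 to 120.0 CPM on ND and 31.4 to 51.1 CPM on HFD, with Myh4 at 0 counts. Within that list Acta1, skeletal muscle actin, fell (39.3 to 4.23 CPM in the mean, log2 fold change -3.21, edgeR adjusted p = 0.00918) and Pvalb, a calcium buffer of fast fibres, rose (log2 fold change 4.13, edgeR adjusted p = 0.00845). Ckm lies at chr7:19404776-19422841 on the plus strand, where 451 of its exonic bases overlap the opposite-strand gene A930016O22Rik.

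Ckmt1, the ubiquitous mitochondrial kinase, had 0, 5 and 20 counts on ND and 14, 22 and 12 counts on HFD. At such counts the groups overlapped and the interval was wide (log2 fold change 1.07, SE 0.93, 95% interval -1.13 to 3.26, edgeR adjusted p = 0.458), so no direction could be read from it. Ckmt2, the sarcomeric form, had 1 count in ND replicate 3 and 0 counts in the other 5 libraries and was not tested. Ckmt1 lies at chr2:121357714-121363737 (plus strand) and Ckmt2 at chr13:91853387-91876885 (minus strand), and they share 10 and 84 exonic bases with Strc and 1700119I11Rik on the opposite strands. The libraries are not described as strand-marked, so reads in such shared bases cannot be assigned to a strand.

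Alpl, the phosphatase, was the member with the lower values on HFD, at 7.34, 7.37 and 10.2 CPM under ND, against 6.07, 7.11 and 2.99 CPM under HFD. The groups did not overlap, though HFD replicate 2 lay just under ND replicates 1 and 2. The difference did not pass the test: the means were 8.30 ± 1.64 and 5.39 ± 2.14 CPM (SD, n = 3 per diet), with a log2 fold change of -0.62 (SE 0.34, 95% interval -1.42 to 0.17, edgeR adjusted p = 0.240). The log2 fold change was -0.48 without ND replicate 3, -0.35 without HFD replicate 3 and -0.19 without both. Alpl lies at chr4:137741733-137796384 on the minus strand.

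**Figure D2:**
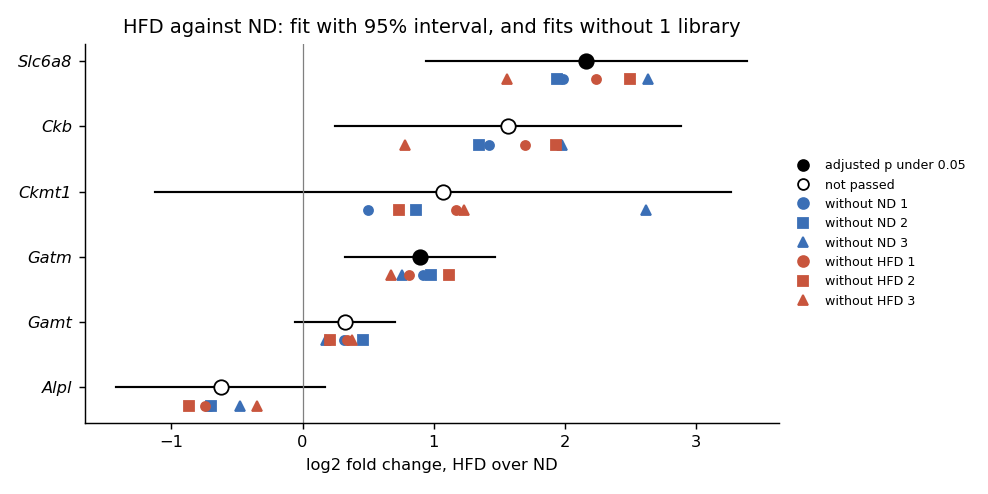
Log2 fold change of the 6 tested genes, HFD over ND, with the 95% interval of the edgeR fit (circle and bar, filled where the adjusted p was under 0.05) and, below it, the values of the 6 fits without 1 library each. No point crosses 0 for any gene, and Slc6a8 and Ckb were lowest without HFD replicate 3.

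Per unit of length, Ckb was the most abundant member on both diets. On ND its mean was 40.0 ± 18.5 FPKM, followed by Gamt at 29.9 ± 5.24, Slc6a8 at 6.20 ± 3.16, Gatm at 4.17 ± 0.567, Alpl at 2.09 ± 0.392 and Ckmt1 at 0.174 ± 0.207 FPKM (SD, n = 3). Ckb and Gamt overlapped in that order, as did Slc6a8 and Gatm, whereas Gamt was separate from Slc6a8 and Gatm from Alpl. On HFD the means were 118 ± 86.1 FPKM for Ckb, 37.1 ± 5.18 for Gamt, 27.6 ± 16.8 for Slc6a8, 7.66 ± 2.29 for Gatm, 1.34 ± 0.534 for Alpl and 0.373 ± 0.140 for Ckmt1 (SD, n = 3). Here Ckb no longer overlapped Gamt, and Slc6a8 was separate from Gatm and overlapped Gamt instead. Summed over the 4 kinases, the level was 40.2 ± 18.7 FPKM on ND and 118 ± 86.0 FPKM on HFD (SD, n = 3 per diet, two-sided exact permutation p = 0.2).

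**Figure D3:**
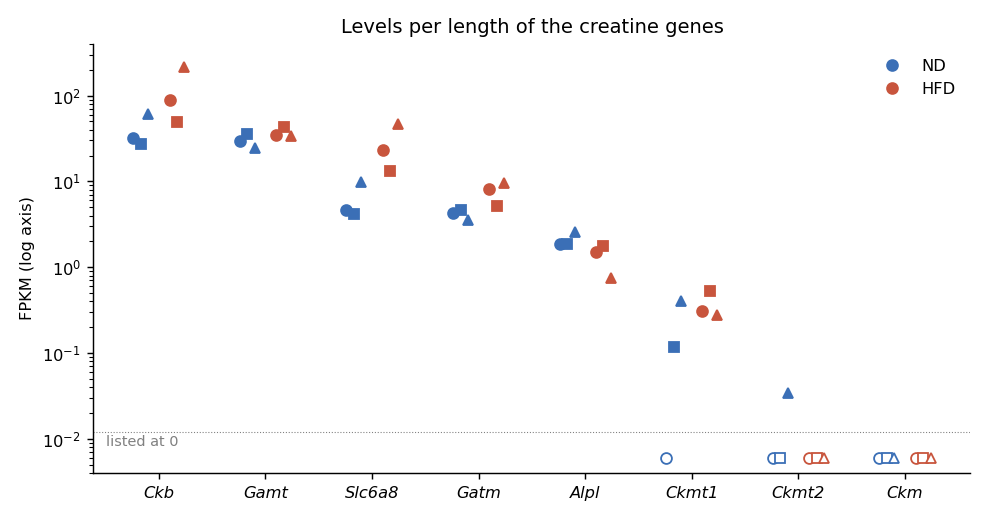
FPKM of the 8 genes in each library on a log axis, with ND in blue and HFD in red, and open symbols below the dotted line for libraries in which the gene is listed at 0. Ckb and Gamt are the top pair on ND, and Slc6a8 reaches the range of Gamt on HFD, from 13.4 to 46.2 FPKM.

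Across the 6 libraries, Ckb and Slc6a8 lay closest of all 15 pairs of tested members. Their centred log2 CPM values differed by a root mean square of 0.36, against 0.46 for Gatm and Gamt and 1.66 for Slc6a8 and Alpl, the pair least alike. The measure depends on the size of the changes as well as their order. Gatm and Gamt had opposite orders over the HFD libraries, whereas Gatm and Slc6a8, at 0.85, had the same order there. Ckb and Slc6a8 were both highest in HFD replicate 3, then HFD replicate 1, and both were higher in ND replicate 3 than in the other ND libraries. The 2 genes were not in a fixed proportion, however. The log2 ratio of Ckb to Slc6a8 FPKM was 2.79, 2.70 and 2.64 on ND and 1.92, 1.90 and 2.22 on HFD. The groups did not overlap, and the means were 2.71 ± 0.08 and 2.01 ± 0.18 (SD, n = 3 per diet, two-sided exact permutation p = 0.1, the smallest p possible here). This ratio was chosen after the values of both genes were seen.

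Other genes came closer still to single members by the same measure, taken over protein-coding genes with a mean of at least 1 CPM. The nearest to Slc6a8 were Pak1, a kinase downstream of Rac and Cdc42 (0.13), Tpd52 (0.17) and C77080 (0.20), all of which rose on HFD. The nearest to Ckb were Mefv, which encodes pyrin (0.11), Kif1a, an axonal kinesin (0.17), and Tgif1 (0.20), none of which passed the test. Dck, deoxycytidine kinase (0.04), Mical1 (0.06) and Rhoh (0.08) were nearest to Gatm, and only Mical1 of these was called, as higher. Nomo1 (0.04), Parp3 (0.04) and Bcap31 (0.07) were nearest to Gamt, and Zfp462 (0.07), Slc25a42 (0.07) and Sh3d21 (0.08) to Alpl, with none called. These distances rest on 6 libraries and are descriptions.

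Markers of other cells also differed between the diets. All 15 macrophage markers listed were tested and 11 of them rose, none fell, and their summed level was 2066 to 2184 CPM on ND and 4719 to 10393 CPM on HFD. Of 10 markers of lipid-associated macrophages, the form that gathers around dying fat cells, 9 rose, and the sum went from 355 to 501 CPM on ND to between 3414 and 14747 CPM on HFD, with no marker of either list at 0. HFD replicate 3 was highest, then HFD replicate 1, then HFD replicate 2, in both sums and also in Slc6a8, Ckb and Gatm. Gamt, Ckmt1 and Alpl were instead highest in HFD replicate 2 and lowest in HFD replicate 3. On ND, Slc6a8 and Ckb were highest in ND replicate 3, where both macrophage sums were the lowest of the ND libraries (2066 and 355 CPM). Adipocyte markers went the other way: 3 of 15 fell (Cfd, Retn and Slc2a4), none rose in edgeR at an adjusted p of 0.05 and 1 rose in DESeq2, with a median log2 fold change of -0.52, and the sum was 51001 to 67715 CPM on ND and 28975 to 50565 CPM on HFD, lowest in HFD replicate 3, where Alpl was lowest too. Without 1 library, the macrophage count ran from 4 (without ND replicate 1 or 2) to 13 (without HFD replicate 2), with 5 without HFD replicate 1 and 7 without ND replicate 3, and the lipid-associated count ran from 6 (without ND replicate 1 or 2) to 10 (without HFD replicate 2). The adipocyte count was 0 without ND replicate 1, 2 or 3 or HFD replicate 1, and 6 without HFD replicate 2. The part of these markers in the results for Slc6a8, Ckb, Gatm and Alpl was not tested.

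ND replicate 3, the ND library with the highest Ckb, Slc6a8, Alpl and Ckmt1, stood apart in epithelial markers. Their summed level over 10 listed genes was 112 CPM there, against 11.98 and 12.30 CPM in the other ND libraries and 9.50 to 13.1 CPM on HFD, and Epcam had 751 counts there against 4 at most elsewhere. Summed kidney tubule markers, 11 listed, were 95.7 CPM in that library and 5.86 to 12.9 CPM in the others, with Kap at 0 counts in all. Without ND replicate 3 the log2 fold changes of Slc6a8 and Ckb were larger, at 2.64 and 1.98, with Slc6a8 still called (adjusted p = 0.0467) and Ckb not (adjusted p = 0.101). The log2 fold change of Ckmt1, which had 20 counts in ND replicate 3, was 2.62 without that library and 1.07 with it. Ckmt1 did not pass in either fit (edgeR adjusted p = 0.143 without it). With ND replicate 3 and HFD replicate 3 both removed, which was decided once the values were known, the adjusted p was 0.00763 for Slc6a8, 0.0351 for Ckb and 0.177 for Gatm, and Alpl did not pass.

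**Figure D4:**
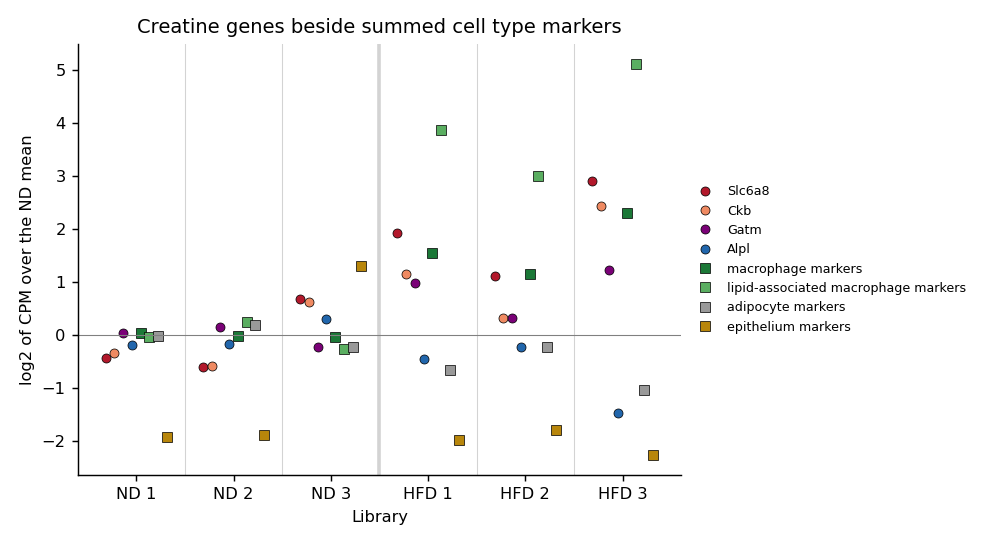
Level of 4 creatine genes (circles) and summed level of 4 marker lists (squares) in each library, as log2 of CPM over the ND mean of the same quantity. Slc6a8, Ckb and Gatm take the same order over the HFD libraries as the macrophage sums, and the epithelial sum is high in ND replicate 3.

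Of the other marker lists, neutrophil markers were tested for 4 of 10 genes, with S100a8 and Csf3r higher and Camp lower. Smooth muscle had Synpo2 higher and Cnn1 lower of 9 tested, and Schwann cell markers had Mbp higher of 6. None of the 10 endothelial, 12 progenitor and 9 mesothelial markers tested was called by edgeR. At an unadjusted p of 0.05 there were 2, 0 and 1 such genes, and DESeq2 called 1 endothelial gene, as lower, and none of the others. Of 10 pancreatic acinar markers 2 were tested and both rose, among them Cela1, while Cela2a, Ctrb1, Pnlip, Cel and Amy2a5 had 0 counts, and no epididymis marker had enough counts to be tested.

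Around the synthesis step of Gatm, 15 of 18 listed genes of arginine, ornithine and glycine metabolism were tested, and 1 rose: Gldc, glycine decarboxylase, from 0.289 ± 0.0890 to 1.42 ± 0.446 CPM (SD, n = 3 per diet, log2 fold change 2.28, edgeR adjusted p = 0.0184). The most abundant of the rest were Oat, ornithine aminotransferase, and Odc1, ornithine decarboxylase. Oat was at 222 ± 9.99 and 170.0 ± 5.05 CPM (log2 fold change -0.38, edgeR adjusted p = 0.0653), below ND in every HFD library, but did not pass. Odc1 was at 101 ± 2.70 and 107 ± 19.6 CPM (log2 fold change 0.08, edgeR adjusted p = 0.736). The list's median log2 fold change was 0.08, and DESeq2 called 2 of its genes higher and 2 lower.

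Around Gamt, 12 of 16 genes of the methionine cycle and competing methyltransferases were tested, none rose in edgeR or DESeq2 and 1 fell, against 2 in DESeq2. Cth, cystathionine gamma-lyase of the transsulfuration path, was at 21.5, 14.9 and 14.1 CPM under ND, against 6.01, 10.1 and 7.03 CPM under HFD. All HFD libraries were below all ND libraries (log2 fold change -1.13, SE 0.26, edgeR adjusted p = 0.0294). Mat2a, which makes S-adenosylmethionine outside the liver, and Nnmt, which spends it on nicotinamide, were the most abundant and did not pass (log2 fold change -0.35 and -0.53, edgeR adjusted p = 0.277 and 0.0742). The median over the tested genes was -0.23.

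Among relatives of Slc6a8 and transporters of similar compounds, 2 of 8 tested genes of 9 listed rose and none fell, while DESeq2 called 1 gene lower. Slc6a6, the taurine transporter, was at 106, 101 and 116 CPM under ND, against 347, 232 and 520 CPM under HFD, without overlap and with HFD replicate 3 the highest and HFD replicate 2 the lowest, as for Slc6a8 (log2 fold change 1.76, SE 0.29, edgeR adjusted p = 0.0119). Slc6a7, the proline transporter, rose from a much lower level, 0.0886 ± 0.0268 to 1.28 ± 0.794 CPM (SD, n = 3 per diet, log2 fold change 3.74, edgeR adjusted p = 0.0133). Slc6a13, a GABA and taurine carrier, and Slc16a12, which can carry creatine out of cells, did not pass (log2 fold change -0.25 and 0.18, edgeR adjusted p = 0.468 and 0.694).

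Among genes that move phosphate and adenine nucleotides across the mitochondrial membranes or between nucleotides, 2 of 17 tested rose and none fell, with a median log2 fold change of -0.21, while DESeq2 called 1 gene lower. Slc25a24, a calcium-regulated ATP-magnesium and phosphate carrier, rose from 36.0 ± 2.94 to 73.0 ± 22.2 CPM (SD, n = 3 per diet, log2 fold change 1.02, edgeR adjusted p = 0.0258). Nme4, the mitochondrial nucleoside diphosphate kinase, rose from 2.94 ± 0.282 to 6.76 ± 0.498 CPM (log2 fold change 1.2, edgeR adjusted p = 0.0154). Slc25a5, the adenine nucleotide translocator 2, did not pass (log2 fold change -0.36, edgeR adjusted p = 0.277).

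Ion pumps, the large users of ATP that creatine kinases are known to serve, and calcium release channels were listed together. The list had 2 higher and 1 lower of 12 tested. Atp2a3, a calcium pump of the endoplasmic reticulum found in blood cells, rose (44.1 ± 6.31 to 104 ± 45.9 CPM, log2 fold change 1.24, edgeR adjusted p = 0.0471). Ryr2, a calcium release channel, rose from 0.313 ± 0.192 to 3.64 ± 0.753 CPM (log2 fold change 3.49, edgeR adjusted p = 0.00881). Atp2b4, a calcium pump of the plasma membrane and an abundant gene of this list, did not pass (log2 fold change -0.82, edgeR adjusted p = 0.154).

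Around Alpl, 8 of 14 genes of phosphate and pyrophosphate handling were tested, 2 rose and 2 fell, while the other alkaline phosphatases Alpi, Alppl2 and Akp3 and the bone genes Ibsp and Bglap had 0 counts. Runx2, a transcription factor of bone cells, rose from 1.25 ± 0.175 to 7.35 ± 3.11 CPM (log2 fold change 2.55, edgeR adjusted p = 0.00899). Spp1, osteopontin, was at 0.486, 0.174 and 5.45 CPM under ND, against 34.9, 19.0 and 307 CPM under HFD (log2 fold change 5.84, SE 1.48, edgeR adjusted p = 0.0391), and it is also on the list of lipid-associated macrophage markers. The phosphate importer Slc20a2 fell from 53.8 ± 1.07 to 29.7 ± 3.41 CPM (log2 fold change -0.86, edgeR adjusted p = 0.00832), and Nt5e, the ectoenzyme that takes phosphate from AMP, fell from 25.3 ± 11.4 to 3.35 ± 1.75 CPM (log2 fold change -2.92, edgeR adjusted p = 0.0138). Ank, which exports pyrophosphate and ATP, and the phosphate importer Slc20a1 did not pass (log2 fold change 0.68 and 0.32, edgeR adjusted p = 0.0860 and 0.261).

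Genes of thermogenic adipocytes, the cells in which creatine cycling has been described, had 1 higher and 2 lower of 19 tested, with a median log2 fold change of 0.04. DESeq2 called 2 of the list higher and 5 lower, and at an unadjusted p of 0.05 in edgeR the counts were 2 and 7. Adrb3, the beta-3 adrenergic receptor, was at 544, 779 and 775 CPM under ND, against 187, 307 and 93.2 CPM under HFD (log2 fold change -1.84, edgeR adjusted p = 0.0284). Ppargc1a, a coactivator of mitochondrial genes, was at 7.99, 8.93 and 10.2 CPM under ND, against 1.80, 3.01 and 1.21 CPM under HFD (log2 fold change -2.17, edgeR adjusted p = 0.0114). Both fell, with every HFD library below every ND library, and both were lowest in HFD replicate 3, where Ckb and Slc6a8 were highest. Otop1, a proton channel, rose from 0.351 ± 0.307 to 9.96 ± 3.55 CPM (SD, n = 3 per diet, log2 fold change 4.82, edgeR adjusted p = 0.0069). Ucp1, the uncoupling protein that defines brown and beige fat cells, had 0 counts in every ND library and 3, 9 and 1 counts in the HFD libraries, too few to be tested, and Zic1 had 0 counts throughout. Esrra and Kcnk3, the abundant genes of the list that did not pass, had log2 fold changes of -0.20 and 0.54 (edgeR adjusted p = 0.425 and 0.289).

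The number of calls in these 7 lists changed with the library left out, as did the number over all genes tested. A fit without 1 library also has fewer samples, so a drop in calls does not by itself mark that library. With all libraries 16 genes of the lists were called, against 5 without ND replicate 1, 5 without ND replicate 2, 7 without ND replicate 3, 5 without HFD replicate 1, 31 without HFD replicate 2 and 14 without HFD replicate 3. Over all genes tested, 2504 were called with all libraries, and 492, 591 and 1003 without ND replicate 1, 2 and 3. Without HFD replicate 1, 2 and 3 the numbers were 474, 3940 and 2095.

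**Figure D5:**
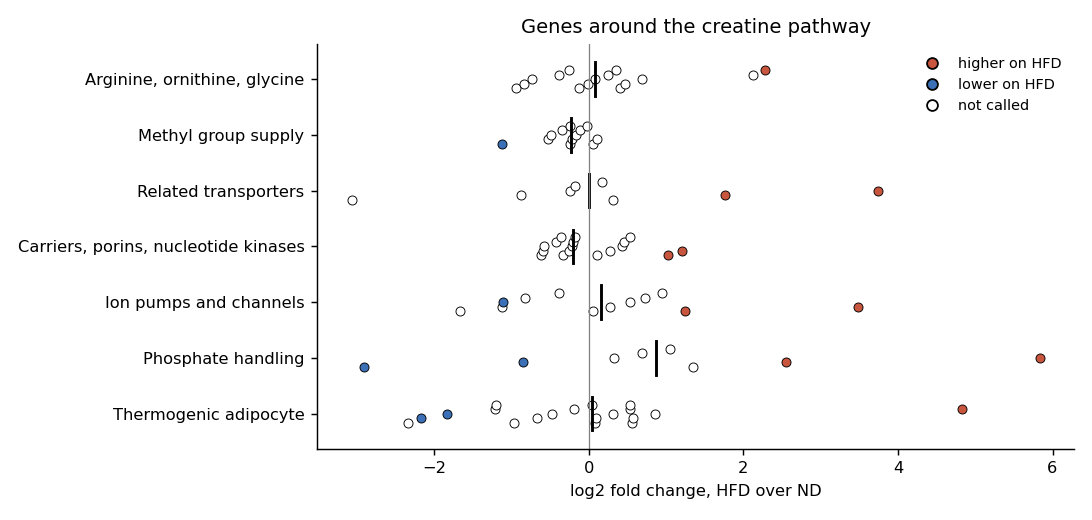
Log2 fold change, HFD over ND, of every tested gene in 7 lists around the creatine pathway, with filled circles for genes called by edgeR (red higher, blue lower), open circles for genes not called, and a bar at the median of each list. The medians lie between -0.23 and 0.16 except for phosphate handling, at 0.87.

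The 6 libraries held 16996896 to 18859320 gene counts each. Libraries of the same diet correlated at a Pearson r of 0.953 to 0.982 over log2 levels of the genes tested, and libraries of different diets at 0.884 to 0.953. Between libraries of the same diet the chi-square of the counts averaged at least 19.0 per gene, so no pair agreed within counting noise.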

How the data were processed

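RNA from epididymal fat was sequenced with paired ends from NEBNext Ultra libraries, 3 from ND-fed and 3 from HFD-fed mice. The deposited tables hold, per gene, whole-number counts and FPKM made by the authors. The study's methods name TopHat and Cufflinks on GRCm38, whereas the submitters' processing notes list CASAVA 1.8, fastp, HISAT2 2.0.5, featureCounts 1.5.0-p3 and DESeq2 1.20.0 and human build names. The gene identifiers are from mouse, and which of these made the tables could not be settled. Of 54532 identifiers, 54409 were found in GENCODE M21 (GRCm38).

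Counts were fitted across all genes with edgeR 4.0.16 in R 4.3.3 (filterByExpr, TMM, glmQLFit and glmQLFTest, robust), with diet as the sole term and Benjamini-Hochberg adjustment over 15751 genes, called at an adjusted p of 0.05. Intervals are at 95%. A single ratio or share was compared by a two-sided exact permutation test over libraries. FPKM was used for levels between genes. Alternatives were DESeq2 1.42.0, limma 3.58.1 on counts (voom) and on log2(FPKM + 1) or log2(FPKM + 0.1) with FPKM of at least 0.5 in 3 libraries, other scalings and filters, the replicate number as a block, and each library left out. Total counts per library (16996896 to 18859320) set the precision: 3 counts equal 0.150 to 0.181 CPM. The fit was tested on simulated data.

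Named genes were all 8 members, from each pathway list every called gene up to 6 and the 2 most abundant not called, and from the marker lists their counts and sums with a few examples. A few genes that this rule names are counted in their lists and not reported here by name. Likeness was the root mean square difference of centred log2 CPM (prior count 2) over the 6 libraries. Each motif was searched on both strands as TATAAA and CCAAT. The members, lists and rules were chosen with earlier results of these data known. Replicate numbers were checked for pairing. Sequences are from GENCODE M21 and RefSeq (GRCm38.p6). No sample was left out of the main comparison.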

Additional observations from a re-analysis of the deposited data

How the results depend on the processing

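All 6 tested members kept the sign of their fold change in every alternative fitted. The number of members called, 2, was 1 in limma-voom, under the size factors of DESeq2, and on log2(FPKM + 1) and log2(FPKM + 0.1) (Slc6a8 each time) and without the filter on low counts (Gatm), 0 with log2(FPKM + 1) and no filter, and 0 to 3 when 1 library was left out. DESeq2 called Gatm (adjusted p = 0.0150) and Slc6a8 (adjusted p = 5.03e-05), and not Ckb (adjusted p = 0.116). Over 18 alternatives the adjusted p ran from 0.00557 to 0.177 for Gatm, from 5.03e-05 to 0.120 for Slc6a8 and from 0.0239 to 0.278 for Ckb, and Gamt and Alpl passed in none of the 18. Ckmt1 passed in none of the 16 in which it could be fitted.

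The number of genes called, 2504, ranged from 474 without HFD replicate 1 to 3940 without HFD replicate 2, was 649 with log2(FPKM + 1) and no filter, and was 1988 with replicate 3 of both diets left out. The difference in the Ckb share of kinase FPKM, HFD minus ND, was -0.130 percentage points and ran from -0.321 to 0.143 with 1 library left out, turning to 0.0609 without ND replicate 1 and 0.143 without HFD replicate 2. For the Gatm to Gamt ratio the difference of 0.52 ran from 0.26 to 0.90. Length-normalized CPM in place of FPKM leaves these shares and ratios as they are by construction, since a scaling within a library cancels. The causes were not tested.

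Over the genes tested, libraries with the same replicate number did not deviate together (correlations of -0.0858, -0.0556 and -0.00532). With 3 libraries per diet this check cannot exclude that the numbers pair the samples. Slc6a8 and Ckb were highest in replicate 3 and lowest in replicate 2 on both diets, and the block lowered the SE of their log2 fold changes to 0.17 and 0.21. With replicate number as a block, 1886 genes were called, 1693 of them shared with the fit without it, and 2 members, Slc6a8 (adjusted p = 0.0109) and Ckb (adjusted p = 0.0239), while Gatm stood at 0.105. Of 504 recounts of the pathway and marker lists, 376 equalled the main count or were within 1.5 times it. These include recounts of 0 where the main count was also 0, so the number is no measure of stability. Ckm, Ckmt2 and Ucp1 had too few counts to be tested, and all other values rest on 3 libraries per diet.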
